A study of Mus musculus with 9 samples.

Results

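The 10 genes described here encode the muscle acetylcholine receptor and the proteins that cluster it, or clear its transmitter, at the neuromuscular junction. They are the receptor subunits Chrna1, Chrnb1, Chrnd, Chrng and Chrne, the organisers Musk, Dok7, Rapsn and Lrp4, and the esterase Ache. They were chosen by name out of 35675 genes, and the value of a gene is the sum of the estimated counts of its Ensembl transcripts in each library. Polyadenylated RNA was sequenced from 9 libraries of mouse embryonic fibroblasts (MEFs) in 3 groups of 3. The first group, MyoD F/R/C, held MEFs given ectopic MyoD (a muscle transcription factor, the product of Myod1) together with small molecules that the labels give only as the letters F/R/C. The second group, MyoD, held MEFs labelled as given ectopic MyoD alone, and the third, MEF, held MEFs with no treatment. All 9 libraries, controls included, are labelled with the Dmdmdx genotype, a dystrophin mutation used as a mouse model of Duchenne muscular dystrophy, so no group has wild-type dystrophin. Doses, times, the vector and the promoter driving MyoD, and the age and number of the embryos are not given in the labels or the design text. The comparisons ask how far MyoD, without and with the small molecules, brought the fibroblasts toward the muscle side of the synapse.

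At the neuromuscular junction a motor neuron releases acetylcholine onto a ligand-gated cation channel in the muscle membrane. The channel is a pentamer of alpha, beta and delta subunits with either the gamma subunit, in fetal and denervated muscle, or the epsilon subunit, which replaces gamma in innervated adult muscle. Agrin from the nerve binds Lrp4, which activates the kinase Musk. Dok7 binds Musk inside the cell and is needed for its activation, and rapsyn, the product of Rapsn, links the receptors into clusters. Acetylcholinesterase ends the signal. Transcription factors of the MyoD family bind short DNA motifs called E-boxes (CANNTG), which are found in the promoters of several receptor subunit genes.

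The libraries held 21112071 to 24291056 estimated counts. A level in CPM is a count relative to the TMM-adjusted size of its library. TPM is also scaled for transcript length. It is used to order genes by level, for the subunit shares and for the log2 ratio of Chrng to Chrne. Sums over gene lists, the subunits set against muscle markers, and the share of Chrng in counts are not scaled for length. A count of 0 allows up to 3 counts, which is 0.113 to 0.144 CPM, and this limit covers counting error only. Nothing in the labels shows that the libraries of a group were separate cultures, so the p-values measure the spread between these libraries, which may be technical. Myod1 itself had 269, 281 and 330 CPM in MyoD F/R/C libraries, 7.21, 9.03 and 18.9 CPM in MyoD libraries, and 2.61, 0.403 and 6.0 CPM in MEF libraries, and edgeR's quasi-likelihood test gave an adjusted p of 0.00109 for MyoD F/R/C against MEF and of 0.886 for MyoD against MEF. Although the label of the MyoD libraries names introduced MyoD, their Myod1 level was low and was not called against MEF. In that comparison 0 of 15714 genes tested were called. The log2 fold change of Myod1 there was 1.97 (SE 0.74), and every MyoD library lay above every MEF library. The counts do not separate an introduced copy from the endogenous gene. The summed level of 8 skeletal muscle markers was 24732 to 32065 CPM in MyoD F/R/C libraries, 546, 679 and 2055 CPM in MyoD libraries, and 5.07, 2.46 and 395 CPM in MEF libraries. MEF replicate 3 thus stood above MEF replicates 1 and 2 in muscle transcripts, and the fold changes against MEF that rest on it are given with and without it. The summed level of 8 fibroblast markers was 3624 to 5119 CPM in MyoD F/R/C libraries, 6306 to 16871 CPM in MyoD libraries and 13529 to 49632 CPM in MEF libraries. In these bulk samples, fewer cells of a type cannot be told apart from less RNA per cell.

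With MyoD and F/R/C together, the junction genes rose together. Of the 10 genes, 9 had enough counts to be tested, and Chrne did not. All 9 tested genes were higher in MyoD F/R/C than in MEF libraries at an adjusted p under 0.05, where 19.5% of all 15714 genes tested were called higher. The median log2 fold change of the 9 was 7.24, against -0.04 over all genes tested. The same 9 genes were higher in MyoD F/R/C than in MyoD libraries, where 17.8% of all genes were called higher, with a median of 3.74 against -0.02 over all genes. None of the 9 was called between MyoD and MEF libraries, where 0% of all genes were called. Their median there was 2.97, against -0.01 over all genes, and 7 of the 9 had an unadjusted p under 0.05 and lay higher in MyoD, where 3.35% of all genes did. DESeq2 called 4 of them higher in that comparison, where it called 1.02% of all genes higher. All MyoD F/R/C libraries lay above all MEF libraries in the 9 tested genes, where 27.1% of all genes did. The MyoD F/R/C and MyoD comparisons with MEF share the MEF libraries. The muscle markers named above moved with every one of these differences, and their part in them was not tested.

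**Figure D1:**
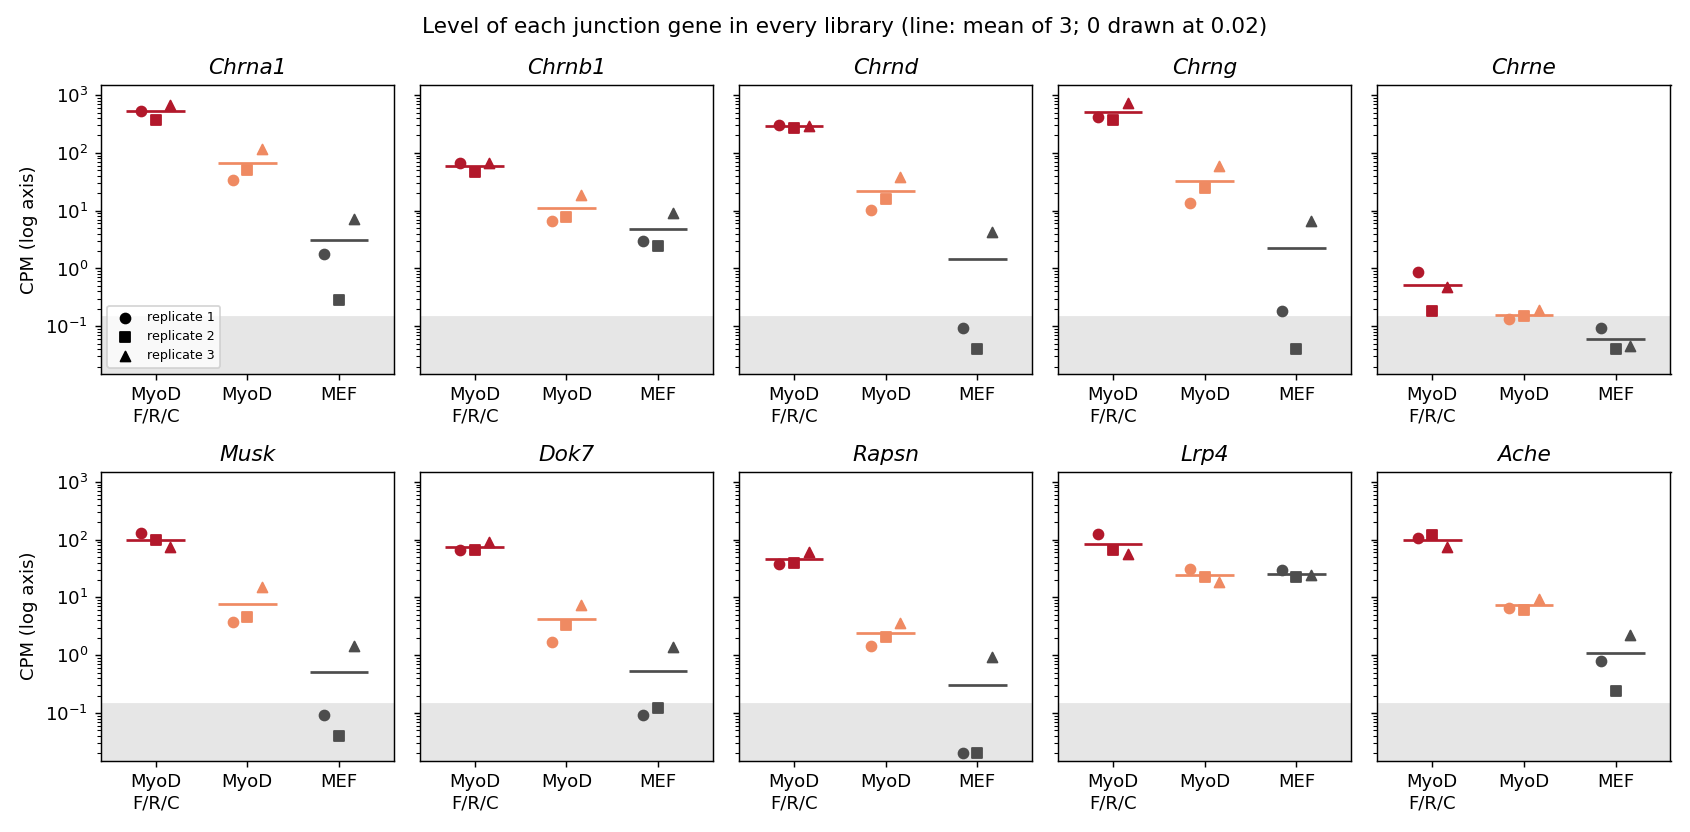
Level of each of the 10 genes in each library, in CPM on a log axis, with 1 panel per gene, the groups MyoD F/R/C, MyoD and MEF from left to right, 1 marker shape per replicate number and the grey band covering levels up to that of 3 counts (at most 0.144 CPM), where values of 0 are drawn near its lower edge, and lines for the means of 3. Chrne stays in or near the band in MyoD and MEF libraries and is the lowest of the 10 genes in MyoD F/R/C libraries, Lrp4 is at a similar level in MyoD and MEF libraries, and MEF replicate 3 lies above the other MEF libraries for 8 of the 10 genes.

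The 3 subunits shared by the fetal and the adult receptor were higher in MyoD F/R/C than in MyoD and in MEF libraries. None of them was called between MyoD and MEF libraries, where 0% of all genes were called. Chrna1 (ENSMUSG00000027107, chromosome 2, 73563215 to 73580338, GRCm38), which encodes the alpha subunit that carries the main contacts for acetylcholine, had 12702, 8085 and 13805 counts in MyoD F/R/C libraries, 746, 1319 and 2412 in MyoD libraries and 39, 7 and 154 in MEF libraries. No library of one group reached the range of another. Its mean level was 521 ± 148 CPM (SD, n = 3) in MyoD F/R/C, 66.4 ± 43.7 CPM in MyoD and 3.07 ± 3.58 CPM in MEF libraries. The log2 fold change of Chrna1 was 7.41 ± 1.12 for MyoD F/R/C against MEF (SE, approximated from the test statistic; edgeR, adjusted p = 0.00175) and 2.97 ± 0.91 for MyoD F/R/C against MyoD (adjusted p = 0.0342). Against MEF it was 8.92 without MEF replicate 3 and 6.81 without MEF replicate 2. Against MyoD it was 3.64 without MyoD replicate 3, and 2.65 and not called without MyoD replicate 1.

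Chrnd (ENSMUSG00000026251, chromosome 1, 87190607 to 87200070), which encodes the delta subunit, had 7331, 5841 and 5992 counts in MyoD F/R/C libraries, 230, 421 and 798 in MyoD libraries and 2, 1 and 93 in MEF libraries. In MEF replicates 1 and 2 it was thus at or under the limit that a count of 0 allows, and the MEF mean of 1.47 ± 2.44 CPM came almost wholly from replicate 3. It rose with F/R/C by a log2 fold change of 7.61 ± 1.43 against MEF (edgeR, adjusted p = 0.00417) and 3.74 ± 1.18 against MyoD (adjusted p = 0.0380). Without MEF replicate 3, 19164 counts in MyoD F/R/C against 3 in MEF libraries gave a ratio of 4445 after scaling (95% exact interval 1521 to 21558, counting error only). The log2 fold change was 6.97 and 7.0 without MEF replicate 2 or 1. Against MyoD it was 4.45 without MyoD replicate 3, and 3.40 and not called without MyoD replicate 1. Chrnb1 (ENSMUSG00000041189, chromosome 11, 69784036 to 69795943), which encodes the beta subunit, started from a higher level in fibroblasts and changed less. It had 1599, 1034 and 1398 counts in MyoD F/R/C libraries, 147, 209 and 385 in MyoD libraries and 65, 60 and 195 in MEF libraries. After scaling, MyoD replicates 1 and 2, at 6.58 and 7.89 CPM, lay below MEF replicate 3 at 9.0 CPM, so the MyoD and MEF groups overlapped for Chrnb1. Its log2 fold change was 3.65 ± 0.60 for MyoD F/R/C against MEF (edgeR, adjusted p = 0.00247) and 2.46 ± 0.57 for MyoD F/R/C against MyoD (adjusted p = 0.0119). Without MEF replicate 3 the first was 4.42, and without MyoD replicate 3 the second was 3.05.

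The fetal gamma subunit was the most abundant of the 10 transcripts with F/R/C, and the adult epsilon subunit the least. Chrng (ENSMUSG00000026253, chromosome 1, 87204657 to 87212694), which encodes gamma, had 9939, 8208 and 15484 counts in MyoD F/R/C libraries, 300, 651 and 1231 in MyoD libraries and 4, 1 and 143 in MEF libraries. The 3 groups did not overlap. Its log2 fold change was 7.82 ± 1.59 for MyoD F/R/C against MEF (edgeR, adjusted p = 0.00583) and 3.98 ± 1.32 for MyoD F/R/C against MyoD (adjusted p = 0.0453). Against MEF it was 7.21 or 7.17 without MEF replicate 1 or 2. Against MyoD it was 4.74 without MyoD replicate 3, and 3.60 and not called without MyoD replicate 1. For Chrng, 33631 counts in MyoD F/R/C against 5 in MEF libraries without MEF replicate 3 gave a ratio of 4681 (2006 to 14416). Chrne (ENSMUSG00000014609, chromosome 11, 70614883 to 70619216), which encodes epsilon, had 21, 4 and 10 counts in MyoD F/R/C libraries, 3, 4 and 4 in MyoD libraries and 2, 1 and 1 in MEF libraries. These counts lie at or close to the limit that a count of 0 allows in all libraries but MyoD F/R/C replicates 1 and 3, and Chrne did not pass the filter on low counts. As summed counts, 35 in MyoD F/R/C against 4 in MEF libraries gave a ratio of 8.94 after scaling (95% exact interval 3.20 to 34.6, counting error only). For MyoD F/R/C against MyoD, 35 against 11 counts gave 3.33 (1.65 to 7.26), and for MyoD against MEF, 11 against 4 counts gave 2.69 (0.796 to 11.6). Without the filter, edgeR called Chrne higher in MyoD F/R/C than in MEF libraries (adjusted p = 0.0239) but not than in MyoD libraries (adjusted p = 0.168). Chrne was therefore clearly detected only in MyoD F/R/C replicates 1 and 3, at a level far under that of Chrng.

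In TPM, Chrng had 314, 272 and 362 in MyoD F/R/C libraries, 10.4, 21.8 and 53.3 in MyoD libraries and 0.301, 0.270 and 5.0 in MEF libraries. Chrne had 0.965, 0.549 and 0.474 TPM in MyoD F/R/C libraries, 0.445, 0.207 and 0.683 TPM in MyoD libraries and 0.225, 0.200 and 0.218 TPM in MEF libraries. The level of Chrng thus separated the groups and that of Chrne did not separate MyoD F/R/C from MyoD libraries. The log2 ratio of Chrng to Chrne, with 0.1 TPM added to each, was 8.20, 8.71 and 9.30 in MyoD F/R/C libraries (mean 8.74 ± 0.55, SD, n = 3). It was 4.27, 6.16 and 6.09 in MyoD libraries (5.51 ± 1.07) and 0.31, 0.30 and 4.0 in MEF libraries (1.54 ± 2.14). No group overlapped another, and MyoD replicate 1, at 4.27, lay just above MEF replicate 3, at 4.0. The difference was 7.20 for MyoD F/R/C against MEF, 3.97 for MyoD against MEF and 3.23 for MyoD F/R/C against MyoD, each with p = 0.1 in a two-sided exact permutation test, the smallest p that 3 libraries against 3 allow. The ratio is limited by Chrne, since its MEF values rest on 1 or 2 counts. The gene sum of Chrne also holds transcripts annotated as retained introns, which are not coding. Taken from the single transcript of highest mean TPM of each gene, the MyoD F/R/C and MyoD groups overlapped. Their difference was then 2.49, with p = 0.2 in the same permutation test.

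Counted as reads, Chrng made up nearly all of the pair wherever it was well detected. Its share of the counts of both genes was 99.8%, 99.95% and 99.94% in MyoD F/R/C libraries, with Clopper-Pearson 95% intervals from 99.7% up that cover counting error only. The share was 99.0%, 99.4% and 99.7% in MyoD libraries, with intervals from 97.1% up. In MEF replicates 1 and 2 it was 66.7% (22.3% to 95.7%) and 50% (1.26% to 98.7%), from 6 and 2 counts, and no order of the subunits can be read from them. In MEF replicate 3 the share was 99.3% (96.2% to 99.98%). Every library with over 10 counts of the pair was therefore almost wholly of the fetal subunit.

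**Figure D2:**
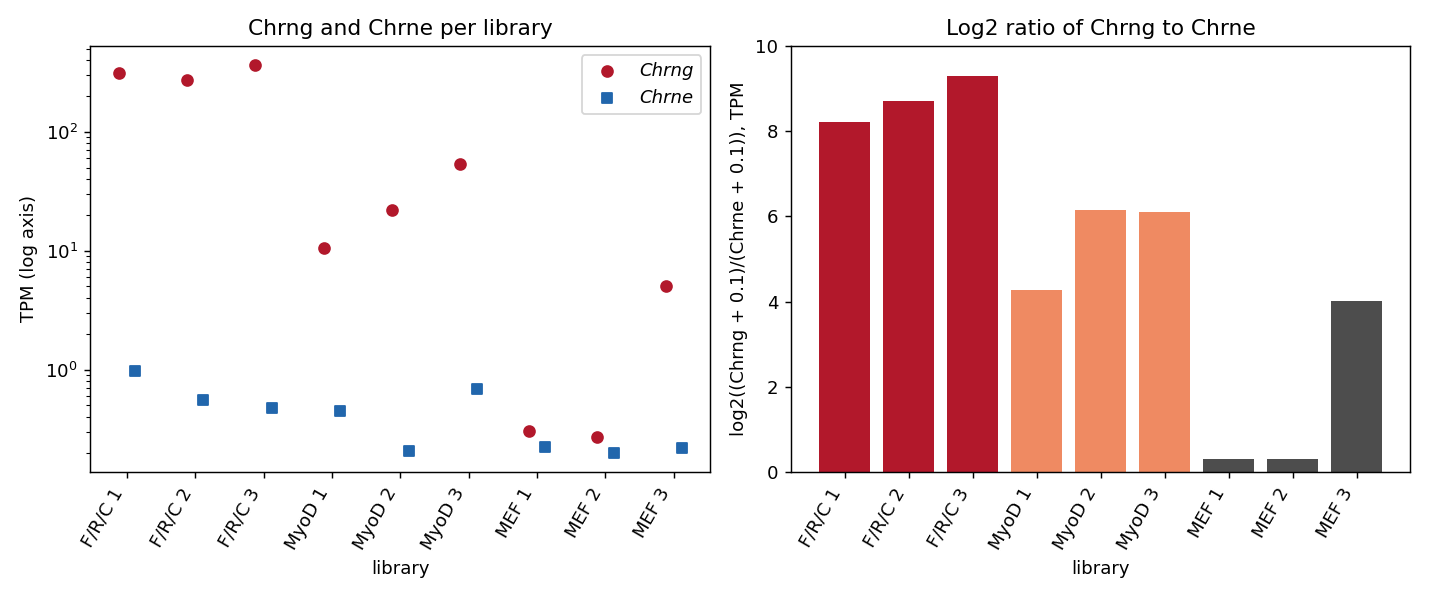
Chrng and Chrne in each library in TPM on a log axis, and the log2 ratio of Chrng to Chrne with 0.1 TPM added to each, for the groups MyoD F/R/C, MyoD and MEF from left to right. Chrng spans 0.270 to 362 TPM across the 9 libraries while Chrne stays at 0.200 to 0.965 TPM.

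The promoter windows of Chrna1, Chrng and Musk, which rose together, and of Chrne, which stayed low, are shown because MyoD family factors bind E-boxes. They are the windows of the 10 genes that hold CAGCTG. The windows, from RefSeq (GRCm38.p6), run from 250 bases before to 50 bases after an annotated transcription start. The table held a window for 7 of the 10 genes and none for Chrnd, Rapsn and Lrp4. Capitals mark each match to the E-box CANNTG, which reads the same in form on both strands, and to CCGGAA on either strand, the core of the N-box that is known in the Chrne promoter for binding ETS factors. The E-box CAGCTG is one form of CANNTG, so the matches to it are among the matches to CANNTG.
Chrna1, chr2:73580289-73580588, minus strand: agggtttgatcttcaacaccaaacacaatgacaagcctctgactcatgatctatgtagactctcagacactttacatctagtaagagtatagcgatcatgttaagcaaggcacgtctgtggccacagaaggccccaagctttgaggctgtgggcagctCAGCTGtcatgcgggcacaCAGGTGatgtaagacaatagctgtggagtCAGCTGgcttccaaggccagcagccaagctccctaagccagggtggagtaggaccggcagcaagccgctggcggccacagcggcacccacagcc
Chrng, chr1:87205561-87205860, plus strand: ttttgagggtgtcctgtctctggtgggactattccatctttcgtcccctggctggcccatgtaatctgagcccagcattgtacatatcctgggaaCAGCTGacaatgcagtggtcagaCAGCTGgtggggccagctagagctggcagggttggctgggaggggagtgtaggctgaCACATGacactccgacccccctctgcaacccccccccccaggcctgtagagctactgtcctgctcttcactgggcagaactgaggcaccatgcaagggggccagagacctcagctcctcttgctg
Chrne, chr11:70619145-70619444, minus strand: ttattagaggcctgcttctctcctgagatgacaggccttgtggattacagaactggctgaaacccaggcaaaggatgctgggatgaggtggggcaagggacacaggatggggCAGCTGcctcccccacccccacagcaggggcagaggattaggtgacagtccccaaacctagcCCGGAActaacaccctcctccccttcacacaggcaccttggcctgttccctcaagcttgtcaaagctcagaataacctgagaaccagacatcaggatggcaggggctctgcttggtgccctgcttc
Musk, chr4:58285712-58286011, plus strand: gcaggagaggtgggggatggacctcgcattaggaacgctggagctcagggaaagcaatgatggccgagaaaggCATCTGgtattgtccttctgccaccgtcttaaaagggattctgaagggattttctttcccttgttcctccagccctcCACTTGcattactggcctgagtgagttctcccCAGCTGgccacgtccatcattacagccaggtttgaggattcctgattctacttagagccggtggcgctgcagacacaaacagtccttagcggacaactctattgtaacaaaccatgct

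In the Chrna1 window, CAGCTG begins 92 and 44 bases before the start, with CAGGTG at 73. In that of Chrng, CAGCTG begins 155 and 132 bases before the start, with CACATG at 75. The Chrne window holds 1 E-box, CAGCTG at 138 bases before the start, and CCGGAA at 76. The Musk window holds CATCTG at 177, CACTTG at 100 and CAGCTG at 68 bases before the start. The 7 genes have 8 windows, since Dok7 has a pair. At least 1 CANNTG was in 7 of the 8, all but the second of Dok7, as in 72.3% of 32851 promoter windows of the same length, and CAGCTG was in 4 of the 8, as in 16.3% of them. At least 2 CAGCTG, as in Chrna1 and Chrng, were in 1.90% of windows, and CCGGAA, in Chrne alone among the 7 genes, was in 14.9%. Of the windows not printed, that of Chrnb1 held CATTTG at 119, CAGTTG at 96 and CAGGTG at 29 bases before the start, the first of the pair for Dok7 held CAGATG at 149, and that of Ache held CACGTG at 199. A match to these letters is a description of the sequence and does not show binding.

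The make-up of the receptor transcripts followed from these levels. Of the summed TPM of the 5 subunit genes, Chrng made up 46.7% ± 4.93 (SD, n = 3) in MyoD F/R/C libraries, 33.1% ± 5.44 in MyoD libraries and 14.4% ± 10.3 in MEF libraries. Chrna1 made up 23.3% ± 1.99 in MyoD F/R/C, 33.5% ± 2.45 in MyoD and 12.2% ± 6.79 in MEF libraries. The share of Chrng was thus above that of Chrna1 in all 3 MyoD F/R/C libraries, while in MyoD libraries the level of Chrng was 0.764, 1.006 and 1.23 times that of Chrna1. Chrnd held 23.1% ± 4.26 in MyoD F/R/C, 19.4% ± 0.116 in MyoD and 5.92% ± 8.21 in MEF libraries. Chrnb1 was the smallest of the main subunits with F/R/C, at 6.72% ± 1.47, against 13.3% ± 2.57 in MyoD libraries and 62.8% ± 18.1 in MEF libraries. Chrne held 0.0967% ± 0.0306 in MyoD F/R/C, 0.661% ± 0.453 in MyoD and 4.62% ± 3.16 in MEF libraries. In fibroblasts the beta subunit transcript was therefore the main one at a low sum, 2.73 and 4.18 TPM in MEF replicates 2 and 1 and 19.1 TPM in replicate 3. The shares were not tested.

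**Figure D3:**
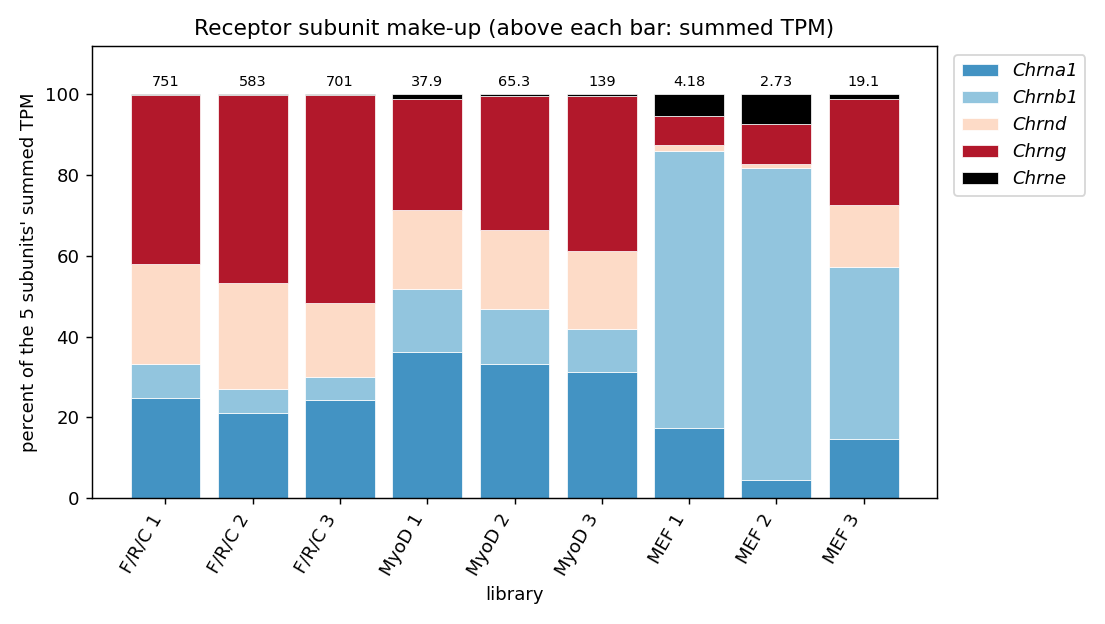
Share of each of the 5 receptor subunit genes in their summed TPM, in percent, for each library, with the groups MyoD F/R/C, MyoD and MEF from left to right. Chrng is the largest share in the 3 MyoD F/R/C libraries and Chrnb1 in the 3 MEF libraries.

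The subunits were also set against the skeletal muscle markers. For each 100 CPM of the 8 skeletal muscle markers there were 5.36, 4.27 and 5.49 CPM of the 5 subunits in MyoD F/R/C libraries and 11.7, 14.5 and 11.3 CPM in MyoD libraries. MEF replicate 3 had 6.84 CPM, and MEF replicates 1 and 2 had 103 and 115 CPM, where the markers themselves summed to 5.07 and 2.46 CPM. This measure was chosen after the values were seen and is given as a description.

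Among the organisers of the synapse, Musk, Dok7 and Rapsn had 0 to 3 counts in MEF replicates 1 and 2 and 20 to 31 in MEF replicate 3, while Lrp4 was well detected in all MEF libraries. Musk (ENSMUSG00000057280, chromosome 4, 58285960 to 58374303), the receptor kinase, had 3078, 2143 and 1529 counts in MyoD F/R/C libraries, 83, 122 and 314 in MyoD libraries and 2, 1 and 31 in MEF libraries. Its mean level was 100.1 ± 28.0 CPM (SD, n = 3) in MyoD F/R/C, 7.81 ± 6.33 CPM in MyoD and 0.521 ± 0.788 CPM in MEF libraries, with no overlap. The log2 fold change of Musk was 7.59 ± 1.15 for MyoD F/R/C against MEF (edgeR, adjusted p = 0.00175) and 3.68 ± 0.93 for MyoD F/R/C against MyoD (adjusted p = 0.0169). Without MEF replicate 2 the first was 6.97. Without MyoD replicate 3 the second was 4.58, and without MyoD replicate 1 it was 3.34 and not called. Without MEF replicate 3, 6750 counts in MyoD F/R/C against 3 in MEF libraries gave a ratio of 1566 (95% exact interval 536 to 7594, counting error only).

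Dok7 (ENSMUSG00000044716, chromosome 5, 35056766 to 35087839), the adaptor that activates Musk, had 1603, 1457 and 1879 counts in MyoD F/R/C libraries, 38, 88 and 155 in MyoD libraries and 2, 3 and 30 in MEF libraries. The groups did not overlap, and the MyoD F/R/C libraries lay close together at 66.4 to 90.2 CPM. Its log2 fold change was 7.13 ± 1.02 against MEF (edgeR, adjusted p = 0.00136) and 4.17 ± 0.86 against MyoD (adjusted p = 0.00782). Without MyoD replicate 3 the second was 4.88, and without MyoD replicate 1 it was 3.79. Without MEF replicate 2 the first was 6.59. Without MEF replicate 3, 4939 counts of Dok7 in MyoD F/R/C against 5 in MEF libraries gave a ratio of 687 (294 to 2118). Rapsn (ENSMUSG00000002104, chromosome 2, 91035620 to 91045729), whose product anchors the receptor clusters, had 904, 865 and 1292 counts in MyoD F/R/C libraries, 32, 55 and 76 in MyoD libraries and 0, 0 and 20 in MEF libraries. It was the only one of the 10 genes at 0 in a library, and its fold changes against MEF rest on the 20 counts of MEF replicate 3. Its log2 fold change was 7.24 ± 1.22 for MyoD F/R/C against MEF (edgeR, adjusted p = 0.00266) and 4.28 ± 1.02 for MyoD F/R/C against MyoD (adjusted p = 0.0134), the largest of the 9 tested genes in the second comparison. Against MEF, the fold change of Rapsn was 6.61 or 6.57 without MEF replicate 1 or 2, and without MEF replicate 3 the MEF group is at 0. Against the limit of 3 counts over both of those MEF libraries, Rapsn was at least 710-fold higher in MyoD F/R/C.

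Lrp4 (ENSMUSG00000027253, chromosome 2, 91457511 to 91513779), the agrin receptor, which is also made by cells other than muscle, was already present in fibroblasts. It had 2927, 1481 and 1188 counts in MyoD F/R/C libraries, 690, 595 and 389 in MyoD libraries and 651, 551 and 539 in MEF libraries. All MyoD F/R/C libraries lay above all others, at 57.0 to 123 CPM, while MyoD libraries at 18.7 to 30.9 CPM overlapped MEF libraries at 22.2 to 30.3 CPM. Lrp4 rose with F/R/C by a log2 fold change of 1.68 ± 0.32 against MEF (edgeR, adjusted p = 0.00465) and 1.78 ± 0.32 against MyoD (adjusted p = 0.00480). Between MyoD and MEF libraries its log2 fold change was -0.10 ± 0.32 (adjusted p = 1), with a sign that turned under total-count scaling (0.0079) and without certain libraries. Lrp4 thus had the smallest change of the 9 tested genes against MEF, and the only one of negative sign in MyoD.

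Ache (ENSMUSG00000023328, chromosome 5, 137287519 to 137294466), which encodes acetylcholinesterase, had 2511, 2668 and 1524 counts in MyoD F/R/C libraries, 148, 162 and 194 in MyoD libraries and 17, 6 and 49 in MEF libraries. The groups did not overlap, and the MyoD libraries lay within a narrow range of 6.12 to 9.33 CPM. Ache averaged 100.1 ± 24.7 CPM (SD, n = 3) in MyoD F/R/C, 7.36 ± 1.73 CPM in MyoD and 1.10 ± 1.04 CPM in MEF libraries. Its log2 fold change was 6.52 ± 0.71 for MyoD F/R/C against MEF (edgeR, adjusted p = 0.000517) and 3.77 ± 0.61 for MyoD F/R/C against MyoD (adjusted p = 0.00313), the lowest adjusted p of the 9 tested genes in both. Without MEF replicate 3 the first was 7.56, and without MEF replicate 2 it was 5.97.

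In order of mean TPM with F/R/C, Chrng stood first at 316 ± 45.1 (SD, n = 3). Chrna1 at 159 ± 32.7 TPM and Chrnd at 156 ± 29.5 TPM followed and overlapped each other. Ache at 74.6 ± 26.6 TPM came next, then Musk, Rapsn, Chrnb1 and Dok7 between 43.8 and 47.5 TPM, which overlapped one another and Ache. Lrp4 had 17.9 ± 9.83 TPM and Chrne 0.663 ± 0.265 TPM, and neither reached the range of a neighbour in this order. Lrp4, at 9.20 to 28.5 TPM, did reach the lowest library of Musk, at 28.2 TPM, though Musk is not its neighbour. In MEF libraries the order was different, with Lrp4 first at 6.33 ± 1.26 TPM and Chrnb1 next at 4.36 ± 3.27 TPM, which overlapped. The other 8 genes had means of 0.214 to 1.86 TPM in MEF libraries.

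Between MyoD and MEF libraries, the direction was regular and the calls were not. Tested with edgeR, the log2 fold change was 4.44 ± 0.99 for Chrna1 (adjusted p = 0.312), 2.75 ± 0.62 for Ache (adjusted p = 0.318) and 3.91 ± 1.02 for Musk (adjusted p = 0.481), the lowest adjusted p-values of the 9. For Chrnd, Chrng, Dok7, Rapsn and Chrnb1 the adjusted p was 0.628 to 1. Of the 9 tested genes, 7 had every MyoD library above every MEF library, where 4.4% of all genes tested did, and Chrnb1 and Lrp4 were the exceptions. At each of the 3 replicate numbers the MyoD library was above the MEF library for 9 of the 10 genes, and for Lrp4 at 2 of 3. The share of all genes with this pattern was not counted and the labels do not pair the libraries, so this count is a description only. Chrne is among the 9 on only 3, 4 and 4 counts in MyoD against 2, 1 and 1 in MEF libraries. Within its group, MyoD replicate 3 was highest for 9 of the 10 genes and MEF replicate 3 for 8. Since equally numbered MyoD and MEF libraries deviated together, a second fit took the replicate number as a block. It called 13 genes against 0 without the block, and none of the 9, with an adjusted p of 0.0810 for Chrna1 as their lowest.

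These calls depended on MEF replicate 3. Without it, edgeR called 7 of the 9 genes higher in MyoD than in MEF libraries, where 0.97% of all genes were called higher. They were Chrna1 (adjusted p = 0.0195), Chrnd (0.00353), Chrng (0.00762), Musk (0.0140), Dok7 (0.0176), Rapsn (0.00889) and Ache (0.00995). The same number was called without MEF replicate 3 and MyoD replicate 3 together. The log2 fold change of Chrna1 was 6.02 ± 0.91 without MEF replicate 3, against 4.44 ± 0.99 with it, and that of Ache was 3.87 ± 0.50 against 2.75 ± 0.62. DESeq2 with all 9 libraries called Ache (adjusted p = 0.00191), Chrna1 (9e-05), Dok7 (0.0483) and Musk (0.00710), gave no adjusted p for Chrnd, and did not call the other 4. The muscle markers summed to 546 CPM in MyoD replicate 1 and 395 CPM in MEF replicate 3, and their part in the lost calls was not tested.

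**Figure D4:**
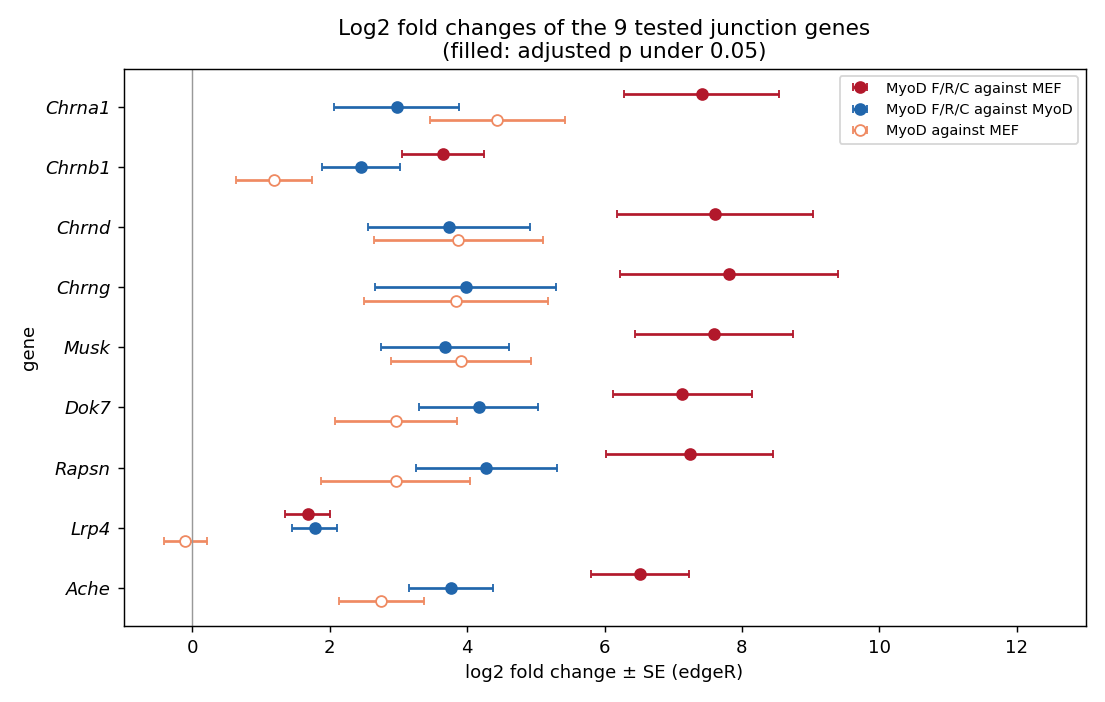
Log2 fold change of the 9 tested genes with bars of 1 SE, for MyoD F/R/C against MEF, MyoD F/R/C against MyoD and MyoD against MEF, with filled markers for an adjusted p under 0.05 in edgeR. Against MEF, 8 of the 9 genes lie between 3.65 and 7.82 with F/R/C and Lrp4 at 1.68, and no marker of MyoD against MEF is filled.

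The calls between MyoD F/R/C and MyoD libraries were less firm than those against MEF, for which all 9 genes were called without any 1 library. Ache, Dok7 and Lrp4 remained called without any 1 of the 9 libraries. Chrna1, Chrnd and Chrng were not called without MyoD replicate 1, without MyoD replicate 2, or without any 1 of the MyoD F/R/C libraries, with adjusted p from 0.0580 to 0.136. Musk was not called without MyoD replicate 1 (adjusted p = 0.0558) or 2 (0.0672), Rapsn without MyoD replicate 2 (0.0531) or MyoD F/R/C replicate 3 (0.0511), and Chrnb1 without MyoD replicate 2 (0.0525). The number of the 9 genes called was 3 without MyoD replicate 2 and 9 without MyoD replicate 3. The log2 fold changes moved less, and that of Chrng ran from 3.60 to 4.74 over these fits. In all 9 genes the MyoD F/R/C libraries lay above every MyoD library, where 26.6% of all genes did. Of all genes, 2796 were called higher and 2531 lower in MyoD F/R/C than in MyoD libraries, and with total counts as the only scaling 2295 were higher and 3119 lower, a shift of -0.19 in the median log2 fold change of all genes, under which all 9 junction genes were still called higher.

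Transcripts of single genes were estimated from shared reads and are given only as descriptions. The annotation holds 5 transcripts of Chrng, and Chrng-201 had 249 ± 62.4 TPM (SD, n = 3) in MyoD F/R/C libraries, 20.4 ± 12.9 TPM in MyoD libraries and 1.47 ± 2.46 TPM in MEF libraries. It was the main transcript in the MyoD F/R/C and MyoD libraries, at 64.6% to 88.2% of the gene's TPM. The coding transcript Chrne-202 had 0.965, 0.0652 and 0.353 TPM in MyoD F/R/C libraries and 0.0771, 0.207 and 0 TPM in MyoD libraries. It had 0.0774, 0 and 0 TPM in MEF libraries. Nearly all of the rest was assigned to transcripts annotated as retained introns, which are not coding. Of these, Chrne-204 held 88.1% of the gene's TPM in MyoD F/R/C replicate 2 and 82.7% in MyoD replicate 1. It held 100% in MEF replicates 2 and 3, and Chrne-203 held 100% in MyoD replicate 3. Chrne-202 held all or nearly all in MyoD F/R/C replicate 1 and MyoD replicate 2. Musk has 8 annotated transcripts, and Musk-202 and Musk-207 held 22.9 ± 10.3 and 21.3 ± 7.42 TPM in MyoD F/R/C libraries. Musk-205 held nearly all of the Musk TPM in MEF replicate 3, at most 0.0138% in MyoD F/R/C libraries, and 45.0%, 0% and 7.28% in MyoD libraries, while Musk-202 held 41.1% to 52.9% in MyoD F/R/C libraries. Of Ache, Ache-201 had 53.4 ± 17.8 TPM and Ache-202 had 17.5 ± 14.1 TPM in MyoD F/R/C libraries, and the share of Ache-202 ran from 0% in MyoD replicate 1 to 78.5% in MyoD replicate 3. The division of Ache and of Musk thus varied among the MyoD libraries. Genes on the opposite strand that overlap Chrne, Rapsn and Ache had at most 6 counts in any library.

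Other genes of the junction were called in both directions. Of 14 partners of agrin and Musk signalling, 2 were called higher and 4 lower in MyoD F/R/C than in MEF libraries, with a median log2 fold change of -0.46. Over all genes tested, 19.5% were called higher and 18.1% lower in this comparison, and the counts for the agrin, neuregulin, scaffold and basal lamina lists lie within 2 genes of what those shares give. Fyn, a Src family kinase that acts on the receptor clusters, was higher, at 194 ± 12.9 CPM (SD, n = 3) in MyoD F/R/C against 23.5 ± 12.8 CPM in MEF libraries (log2 fold change 3.04 ± 0.44, edgeR adjusted p = 0.00143). Ctnnb1, which encodes beta-catenin, was lower, at 359 ± 40.4 CPM in MyoD F/R/C against 979 ± 63.1 CPM in MEF libraries (-1.45 ± 0.21, adjusted p = 0.00145). Pak1, a kinase downstream of Musk, was also lower (-0.66 ± 0.17, adjusted p = 0.0136). Agrn, which encodes agrin and was added to the named genes after its values were seen, had 139 ± 43.3 CPM in MyoD F/R/C and 207 ± 98.6 CPM in MEF libraries, a difference that did not pass (adjusted p = 0.294).

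Of 7 genes of the neuregulin axis and its N-box factors, 2 were called higher and 1 lower (19.5% and 18.1% over all genes), with a median of -0.11. Erbb3, a neuregulin receptor, was 123.7, 116 and 61.5 CPM in MyoD F/R/C libraries, 1.61, 2.27 and 8.71 CPM in MyoD libraries and 0.0930, 0.161 and 2.03 CPM in MEF libraries. It rose in MyoD F/R/C against MEF libraries (log2 fold change 7.05 ± 1.19, edgeR adjusted p = 0.00267), as did its partner Erbb2 (0.93 ± 0.29, adjusted p = 0.0351). For Erbb3, 6778 counts in MyoD F/R/C against 6 in MEF libraries without MEF replicate 3 gave a ratio of 786 (95% exact interval 361 to 2143, counting error only). Erbb2 was not called without any 1 of the MyoD F/R/C or MEF libraries (adjusted p = 0.0546 to 0.121). Gabpa, the ETS factor that binds the N-box, was lower, at 43.6 ± 6.87 CPM in MyoD F/R/C against 68.3 ± 7.29 CPM in MEF libraries (-0.65 ± 0.17, adjusted p = 0.0182).

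Of 10 genes of the postsynaptic scaffold and nuclear anchoring, 3 were called higher and 1 lower in MyoD F/R/C than in MEF libraries (median 0.41), against 19.5% and 18.1% of all genes. Dtna, which encodes alpha-dystrobrevin, had 154 ± 29.3 CPM in MyoD F/R/C against 5.23 ± 2.98 CPM in MEF libraries (log2 fold change 4.88 ± 0.50, edgeR adjusted p = 0.000424). The beta-syntrophin gene Sntb2 was the one called lower (log2 fold change -1.20 ± 0.40, edgeR adjusted p = 0.0424), and it was not called in 7 of the 9 fits without 1 library, those without MEF replicate 2 or 3, MyoD replicate 1 or 2, or any MyoD F/R/C library (adjusted p = 0.0519 to 0.114). Of 9 tested genes of the synaptic basal lamina, 2 were called higher and 2 lower (median -0.63), near the shares of all genes (19.5% and 18.1%). Colq, whose collagen tail anchors the esterase to the basal lamina, had 53.3, 30.2 and 22.1 CPM in MyoD F/R/C libraries, 4.97, 7.17 and 10.3 CPM in MyoD libraries and 0.186, 0.564 and 1.94 CPM in MEF libraries (5.29 ± 0.79 against MEF, adjusted p = 0.00166, and 6.46 ± 0.70 without MEF replicate 3). Col13a1, a transmembrane collagen of the junction, had 469, 421 and 273 counts in MyoD F/R/C libraries, 0, 2 and 12 in MyoD libraries and 0, 0 and 16 in MEF libraries (6.13 ± 1.48 against MEF, adjusted p = 0.0122). Its fold change rests on MEF replicate 3, without which MEF is at 0 and Col13a1 was at least 270-fold higher in MyoD F/R/C against the limit of 3 counts over both MEF libraries. Col13a1 was thus nearly absent from MyoD libraries, unlike Colq. Col4a5 was lower (-3.48 ± 0.57, adjusted p = 0.00247).

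Of the list of esterase and acetylcholine handling, 3 of 5 genes were tested, and Colq was the one called higher, against 19.5% of all genes. Colq is also on the basal lamina list. P4hb had 908 ± 62.9 CPM in MyoD F/R/C and 1214 ± 363 CPM in MEF libraries (edgeR, adjusted p = 0.292). Of 7 tested denervation-responsive genes and repressors, 4 were called higher and none lower (median 3.24), against 19.5% and 18.1% of all genes, among them Gadd45a (log2 fold change 3.71 ± 0.40, adjusted p = 0.000475), Ncam1 (3.24 ± 0.45, adjusted p = 0.00119) and Myog. These genes are known to rise in denervated muscle, and Myog is also among the skeletal muscle markers. Hdac9 had 17.6 ± 5.58 CPM in MyoD F/R/C and 19.7 ± 15.9 CPM in MEF libraries (adjusted p = 0.867). Of 8 genes of receptor assembly and glycosylation that are known from congenital myasthenia or from chaperoning the receptor and Lrp4, none was called higher and 4 lower (median -0.78), against 19.5% and 18.1% of all genes. Mesd, a chaperone of Lrp family receptors, was lower by -1.06 ± 0.18 (adjusted p = 0.00252) and Ric3, a nicotinic receptor chaperone, by -3.05 ± 0.59 (adjusted p = 0.00484), while Gfpt1 had 149.7 ± 30.2 CPM in MyoD F/R/C and 124 ± 27.8 CPM in MEF libraries (adjusted p = 0.420). Of 11 neuronal nicotinic receptor subunits, 1 had enough counts to be tested and was not called, and together they summed to 2.93 to 4.06 CPM in MyoD F/R/C, 0.627 to 2.02 CPM in MyoD and 0.791 to 2.40 CPM in MEF libraries. None of the genes on these lists was called between MyoD and MEF libraries, where 0% of all genes were called, so this does not set the lists apart.

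**Figure D5:**
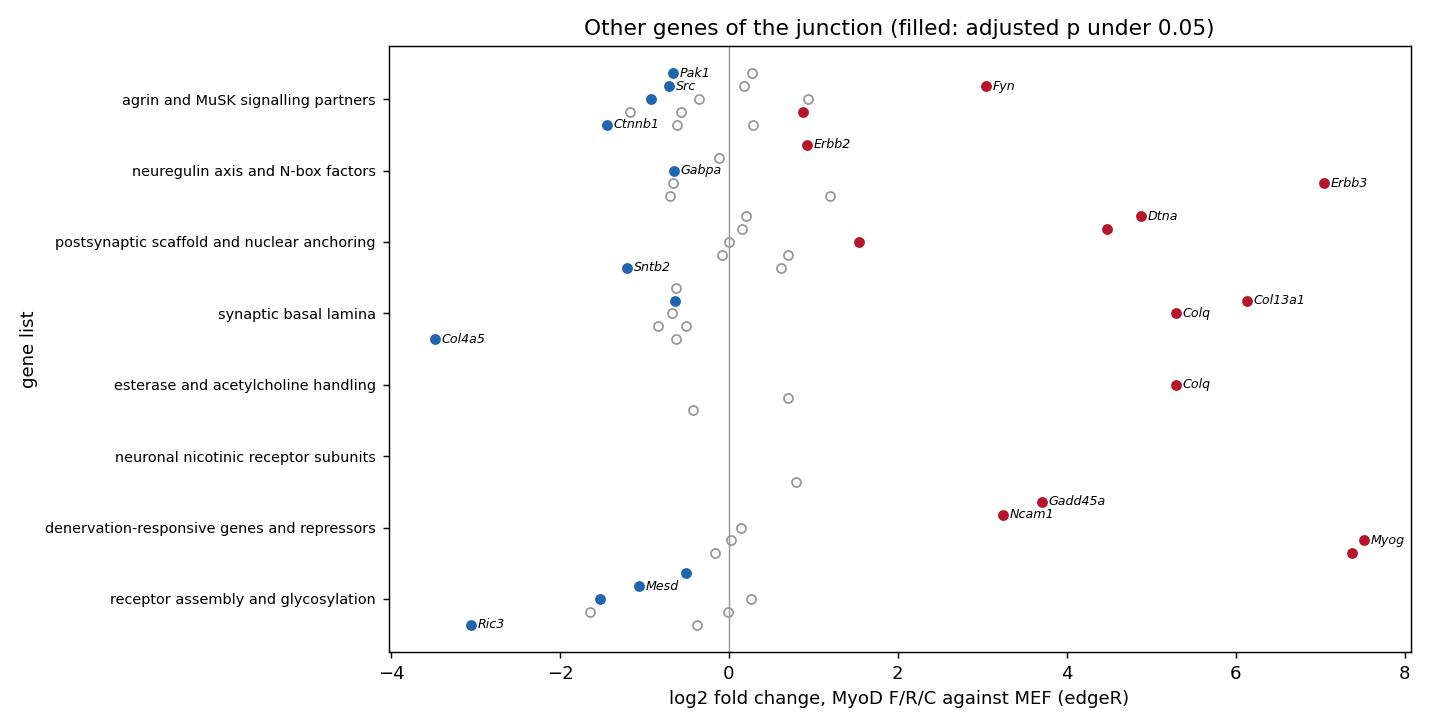
Log2 fold change of the tested genes of each list for MyoD F/R/C against MEF, 1 point per gene, filled where the adjusted p in edgeR was under 0.05 (red higher, blue lower in MyoD F/R/C), with names for the called genes given in the text. The agrin, neuregulin, scaffold and basal lamina lists have called genes on both sides of 0, the 4 called denervation-responsive genes lie between 3.24 and 7.52, and the 4 called assembly and glycosylation genes lie below 0.

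Markers of the nerve side and of glia were examined beside these values. Chat and Slc18a3, which define cholinergic neurons, had 0 counts in all 9 libraries, and Mnx1 had 1 count in 1 library. Of 5 tested motor neuron and nerve terminal markers, 1 was called higher and 1 lower in MyoD F/R/C than in MEF libraries, near the shares of all genes (19.5% and 18.1%). They were Nefl, at 1.39 ± 0.692 CPM against 0.0731 ± 0.0238 CPM (edgeR, adjusted p = 0.0342), and Syt1, which had 0.168 to 0.593 CPM in MyoD F/R/C libraries and 12.1, 64.6 and 0.231 CPM in MEF libraries (adjusted p = 0.0408). Neither call was firm. Nefl was not called without any 1 MEF library, MyoD F/R/C replicate 1 or 3 (adjusted p = 0.0743 to 0.0984), and Syt1 without MEF replicate 1 or 2, MyoD replicate 1 or 2, or any 1 MyoD F/R/C library (adjusted p = 0.0523 to 0.127). The list summed to 4.37 to 10.7 CPM in MyoD F/R/C, 21.3 to 148 CPM in MyoD and 6.27 to 102 CPM in MEF libraries. Of 5 tested Schwann cell markers, 2 were called higher, against 19.5% of all genes. They were Erbb3, which is also on the neuregulin list, and Ngfr (log2 fold change 4.44 ± 0.77, edgeR adjusted p = 0.00303). Sox10, a defining gene of that list, had at most 10 counts in any library, while the list summed to 79.8 to 139 CPM in MyoD F/R/C, 9.82 to 25.9 CPM in MyoD and 8.25 to 12.5 CPM in MEF libraries, mostly from Erbb3 in MyoD F/R/C libraries. All 8 skeletal muscle markers were called higher in MyoD F/R/C than in MEF libraries, where 19.5% of all genes were. Among them were Ckm (8.09 ± 1.07, edgeR adjusted p = 0.00104) and Tnnt3 (7.67 ± 1.27, adjusted p = 0.00254). Without MEF replicate 3, Tnnt3 was at 9.99 ± 0.85, and 10515 counts of Ckm in MyoD F/R/C against 5 in MEF libraries gave a ratio of 1463 (95% exact interval 627 to 4508, counting error only). Of 8 fibroblast markers, 3 were called lower and none higher, against 18.1% and 19.5% of all genes. Those called lower included Col1a2 (-2.94 ± 0.54, edgeR adjusted p = 0.00391, and -2.29 without MEF replicate 1) and Col1a1 (-2.94 ± 0.83, adjusted p = 0.0234). Col1a1 was not called without MEF replicate 1 (-1.78) or any 1 MyoD F/R/C library (adjusted p = 0.0630 to 0.0820), while Dcn did not pass (0.15 ± 1.06, adjusted p = 0.925).

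The genes most like Chrng over the 9 libraries, by Pearson correlation of log2 CPM among 12199 genes, were Mymk (0.999), Tnnt2 (0.998), Trim72 (0.997), Chrnd (0.997) and Smpx (0.997). For Chrne they were mt-Nd5 (0.977), mt-Nd4 (0.972), mt-Nd2 (0.952), Zfp617 (0.941) and mt-Cytb (0.941), and Chrng and Chrne correlated with each other at 0.756. These values describe 9 libraries that form 3 groups and share their group means, and those of Chrne rest on 1 to 21 counts per library.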

How the data were processed

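RNA from 9 libraries was sequenced, 3 each of MyoD F/R/C, MyoD and MEF. Per the labels' protocols, libraries were made with a stranded kit for polyadenylated RNA. Per the submitters' processing notes, bcl2fastq 2.19, Trimmomatic 0.36, kallisto 0.44 and edgeR 3.28 were used with GRCm38.p6, and no source used here names the annotation release or says whether strand was used. For each of 121843 transcripts the authors deposited an estimated count, also called an expected count, and a TPM, per the file headers. The deposited effective length exceeds the annotated length for 14081 transcripts of MEF replicate 1, so their TPM is lower than the annotated length would give.

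Transcripts were joined to genes with GENCODE M21 (121104 joined; the other 739 took 0.200% to 0.494% of a library's counts). Gene sums were rounded to whole counts and entered 1 fit of edgeR 4.0.16 (R 4.3.3) over the 9 libraries, with TMM scaling, the two-sided quasi-likelihood F test and the filter filterByExpr at 10 counts at least and 15 in total. P-values were adjusted by Benjamini and Hochberg over 15714 genes within each comparison, and a gene was called at an adjusted p under 0.05. The SE is approximated as the size of the log2 fold change over the square root of F. The code was tested on simulated data. The ratio of Chrng to Chrne was tested with an exact permutation test (SciPy 1.17.1).

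The 10 genes and 12 lists (101 genes) were chosen with earlier results of these data known. Named genes were the 10, Myod1, up to 3 of each list (the 2 of lowest adjusted p in the direction of most called members and the 1 of lowest in the other) and the 5 genes most like Chrng and Chrne. For the likeness, 0.5 CPM was added before log2, and genes had an average log2 CPM of at least 1. Myog, Agrn and the defining markers at or near 0 were named, and the ratios of summed counts chosen, after their values were seen. Some list members are not reported here.

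Deviations from the group means correlated at 0.695 to 0.766 for equally numbered MyoD and MEF libraries. This is a hint of pairing from the data and not from the design, and the main fit does not use it. Alternatives were DESeq2 1.42.0, its size factors, total-count scaling, other filters, a replicate block, 2-group fits, counts scaled from TPM, other pseudocounts, and fits without each library. The ratio of Chrng to Chrne was also taken from CPM and from single transcripts.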

Additional observations from a re-analysis of the deposited data

How the results depend on the processing

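For MyoD F/R/C against MEF, all 9 tested junction genes kept their direction and call in every alternative that gave an adjusted p, and DESeq2, which gave none for Chrnd, called 8. Against MyoD the direction was kept throughout, and calls were lost only without 1 library (3 to 9 junction genes called, 3620 to 5270 of all genes). Against MEF without 1 library the counts were 9 to 9 junction genes and 4372 to 5375 of all genes. For MyoD against MEF, the number of genes called moved to 171 with DESeq2, 11 with no filter beyond 1 count, 13 with the replicate block, 199 without MEF replicate 3 and MyoD replicate 3, and 0 to 161 without 1 library. The junction genes called there were 4 with DESeq2, 7 without both replicates 3, and 0 to 7 without 1 library. The cause was not tested. Lrp4 changed sign between MyoD and MEF with total counts (0.0079), without both replicates 3 (0.0748) and without 1 library (-0.33 to 0.05).

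Equally numbered MyoD F/R/C and MEF libraries correlated at 0.0809 to 0.145, and MyoD F/R/C and MyoD libraries at 0.0922 to 0.151, each above every unequal pair (at most 0.0264 and 0.0427), a hint from the data and not from the design. With the replicate block, 6875 genes were called for MyoD F/R/C against MEF, 13 for MyoD against MEF and 6334 for MyoD F/R/C against MyoD, with 9, 0 and 9 junction genes. For the log2 ratio of Chrng to Chrne, the mean paired differences under the block (7.20, 3.97 and 3.23) equal the unpaired ones by construction, and the exact permutation p is then 0.25 for each, against 0.1 without pairing. Without 1 library these differences were 6.59 to 8.44, 3.35 to 5.20 and 2.61 to 3.56.

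Depth limits Chrne in every group, and Chrnd, Chrng, Musk, Dok7 and Rapsn in MEF replicates 1 and 2, where they had 0 to 4 counts. Their fold changes against MEF therefore rest on MEF replicate 3.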
